A study of Homo sapiens with 6 samples.

Results

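The genes described here are 40 members of the integrated stress response and the unfolded protein response, chosen by symbol from the 58174 genes listed in the expression table of A549 cells with and without the MIR21 gene. The rule used gene names and no measured value, but the members and lists were chosen with earlier results of these data known. A549 is an established human epithelial line derived from a lung adenocarcinoma. PolyA RNA-seq was available for 3 libraries of parental cells (Ctrl) and 3 libraries of cells with a CRISPR/Cas9 deletion of MIR21 (MIR21-KO), all grown in the same serum-supplemented medium and harvested 48 h after seeding. The labels name no further treatment. The MIR21-KO cells descended from single sorted cells, whereas Ctrl cells were the parental population, and how many clones entered the 3 MIR21-KO libraries is not given. Effects of the deletion and of clonal selection therefore cannot be told apart. The study's text calls the RNA-seq samples independent, while the labels do not say whether they were separate cultures, and p-values measure the spread between these libraries.

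Cells that run short of amino acids, or that accumulate unfolded proteins in the endoplasmic reticulum (ER), phosphorylate the translation factor eIF2alpha through kinases such as GCN2 (EIF2AK4) and PERK (EIF2AK3). General translation then slows while the transcription factor ATF4 is translated preferentially, and ATF4 drives genes of amino acid synthesis and uptake together with stress effectors such as CHOP (DDIT3). The ER sensors IRE1 (ERN1) and ATF6 act in parallel through XBP1 and the ATF6 fragment, and raise ER chaperones and the machinery of ER-associated degradation (ERAD).

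Of the 40 members, 2 rose and 6 fell in MIR21-KO cells. The risers were the mTORC1 inhibitor DDIT4 and the ERAD component HERPUD1. Among the 6 that fell, ASNS, PSAT1, PSPH and MTHFD2 belong to amino acid and one-carbon synthesis, CEBPG encodes a partner of ATF4 and STC2 encodes a secreted glycoprotein. None of the 10 ER folding genes passed the test, and neither did ATF4 itself. The values are FPKM, that is read counts scaled by gene length and by a library size, and fold changes are differences of log2(FPKM + 0.1), MIR21-KO minus Ctrl. They were tested with limma over all 16006 genes whose mean reached 0.5 FPKM, and a gene was called at a Benjamini-Hochberg adjusted p (FDR) under 0.01.

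All 40 members passed the filter on low values. Their 8 calls compare with a background of 16.0% of all tested genes called in either direction, 7.66% higher and 8.38% lower. The members thus had calls about as often as other genes, with 20% of them called, 5% higher and 15% lower. Ctrl and MIR21-KO libraries did not overlap for 23 of the 40 members (57.5%), against 48.1% of all tested genes. All 40 members are protein-coding, and of the 11719 tested protein-coding genes 6465 did not overlap. Of these 11719 genes 1066 were called higher and 1239 lower, and 5756 had an unadjusted p under 0.05. In such bulk libraries a lower level in every cell and fewer expressing cells cannot be told apart. Fold changes were positive for 19 and negative for 21 members, and their median was -0.05 on the log2 scale, beside -0.02 over all tested genes. An unadjusted p under 0.05 was reached by 24 members (60%), against 43.2% of all tested genes. Single libraries shifted these counts: 1 member was called higher after leaving out any library except MIR21-KO replicate 3, and 4 without that replicate. The count of members called lower was 3 without any one of the Ctrl replicates or without MIR21-KO replicate 2. It was 6 when MIR21-KO replicate 1 was left out and 10 when MIR21-KO replicate 3 was left out.

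**Figure D1:**
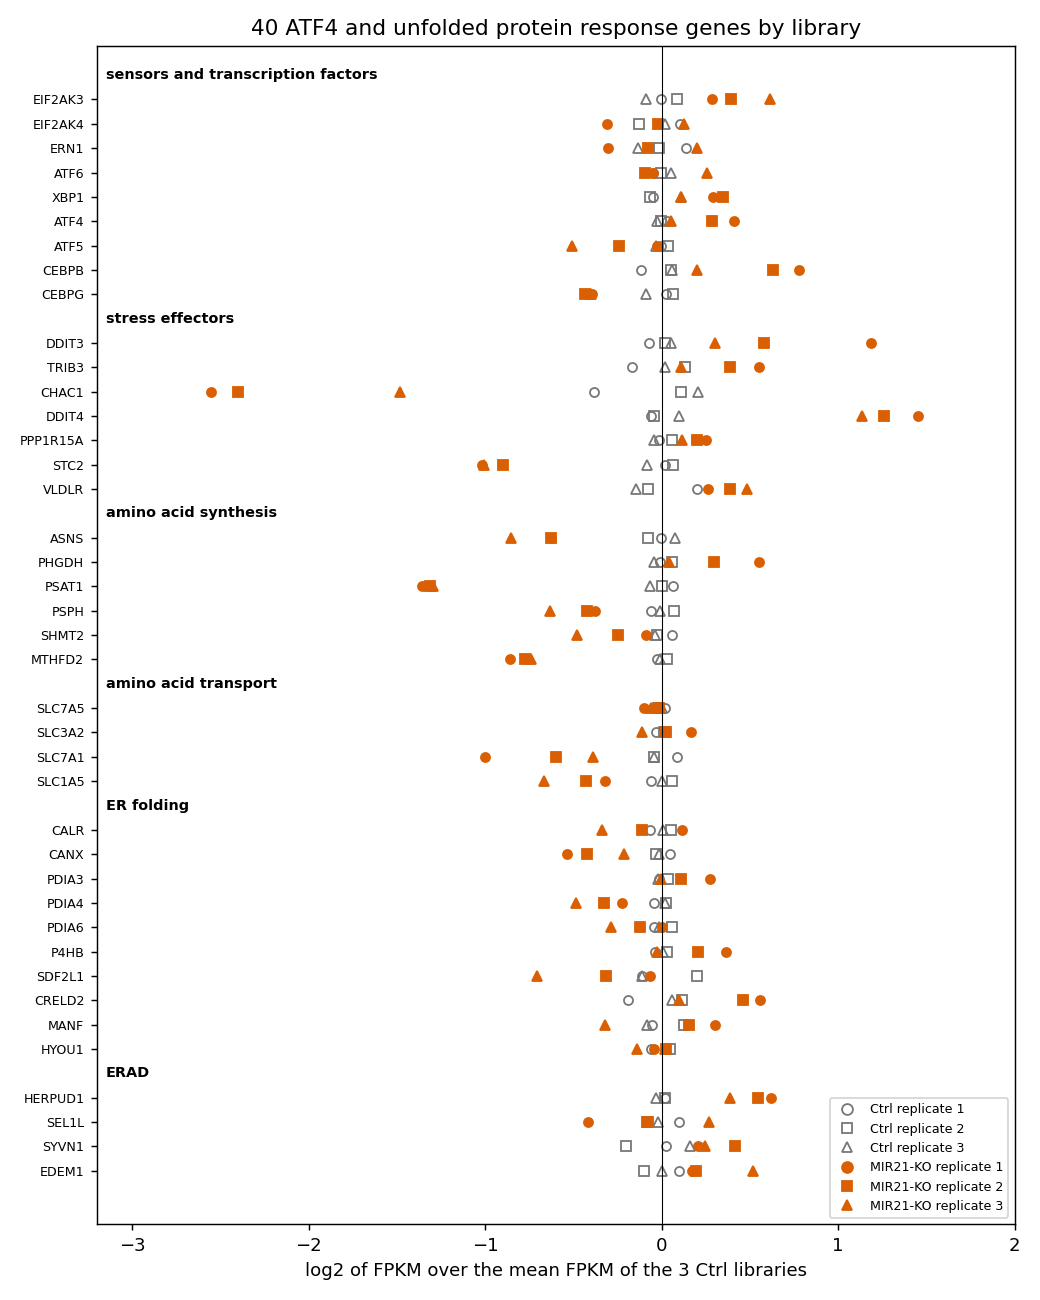
Each row is a member gene and each point a library, placed by the log2 of its FPKM over the mean FPKM of the 3 Ctrl libraries; open grey symbols are Ctrl, filled orange symbols MIR21-KO, and shapes mark replicates. PSAT1, MTHFD2, ASNS, STC2 and CHAC1 lie far to the left and DDIT4 to the right of the Ctrl points, while the ER folding genes spread around 0 and MIR21-KO replicate 3 is the lowest of the 3 MIR21-KO libraries in 9 of 10.

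The libraries held 10631667 to 14345209 reads by the values recovered from the table, and for a gene of 1 kb a single read stood for 0.0731 to 0.0930 FPKM. MIR21 was listed at 0 FPKM in all 6 libraries, Ctrl included, which gives no check of the deletion, and its host gene VMP1 was higher in MIR21-KO (0.92 ± 0.08 SE, FDR 0.000473). The 5 epithelial markers summed to 1194 to 1288 FPKM in Ctrl and 776 to 1106 FPKM in MIR21-KO, most of it from KRT8 and KRT18. KRT18 was at 644 to 688 FPKM in Ctrl and 335 to 499 FPKM in MIR21-KO, whereas KRT19 was at 82.9 to 91.1 FPKM in Ctrl and 85.1 to 129 FPKM in MIR21-KO. EPCAM was at 0.389 to 1.65 FPKM, and CDH1, which encodes E-cadherin, was at 7.63 to 8.79 FPKM in Ctrl and at 2.72 to 3.02 FPKM in MIR21-KO. SFTPA1 was at 0 in every library, and the summed alveolar type II markers found in the table reached at most 0.147 FPKM in Ctrl and 0.766 FPKM in MIR21-KO. Leukocyte and endothelial marker sums stayed at or below 0.286 and 0.0707 FPKM. Of the fibroblast markers COL1A2 was at 0 in all libraries, and COL1A1 (3.28 to 4.51 FPKM) and LUM (1.42 to 2.41 FPKM) made up most of the sum. The part of the lower epithelial sum and of CDH1 in the results below was not tested.

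The arm of amino acid and one-carbon synthesis held the largest share of calls. Of its 6 members 4 fell, 2 did not pass the test and none was called higher, beside 8.38% of all tested genes called lower and 7.66% higher. The median fold change was -0.58, with a range of -0.63 to -0.51 over the alternative analyses. Groups did not overlap for 5 of 6 members, nor for 48.1% of all tested genes. The summed FPKM of the 6 genes was 194 to 204 in the Ctrl libraries and 109 to 119.6 in the MIR21-KO libraries, and PSAT1 alone made up 98.0 FPKM of the Ctrl mean.

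PSAT1 (ENSG00000135069, chr9:78297143-78330093, plus strand, hg38) encodes phosphoserine aminotransferase of the serine pathway. It was measured at 103, 97.95 and 93.6 FPKM in Ctrl replicates 1 to 3 and at 38.2, 39.4 and 39.9 FPKM in MIR21-KO replicates 1 to 3. Every MIR21-KO library was thus far below every Ctrl library, and the spread within each group was small. The mean fell from 98.03 ± 4.51 to 39.2 ± 0.881 FPKM (SD, n = 3), a ratio of 0.400, with a log2 fold change of -1.32 ± 0.07 (SE) and an FDR of 8.99e-05 by limma. The call was kept in all 19 alternative analyses.

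MTHFD2 (chr2:74198562-74217565, plus strand), a mitochondrial enzyme of the folate cycle, had 31.2, 32.5 and 31.6 FPKM in the 3 Ctrl libraries. In the MIR21-KO libraries it had 17.5, 18.6 and 18.98 FPKM. The groups were well apart, with a log2 fold change of -0.79 ± 0.07 and an FDR of 0.000427, and this call too was kept in all 19 alternatives.

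ASNS (chr7:97852118-97872542, minus strand) encodes asparagine synthetase, a classical ATF4 target. Ctrl libraries were at 7.99, 7.58 and 8.44 FPKM and MIR21-KO libraries at 5.17, 5.17 and 4.43 FPKM, with no overlap. The log2 fold change was -0.69 ± 0.10 (FDR 0.00302). The FDR was 0.0131 to 0.0199, and the call was lost, without Ctrl replicate 1, 2 or 3 or without MIR21-KO replicate 2.

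PSPH (chr7:56011051-56051604, minus strand), the phosphatase that completes serine synthesis, was at 19.4, 21.1 and 20.04 FPKM in Ctrl. It was at 15.5, 15.02 and 13.01 FPKM in MIR21-KO, so that all 3 libraries lay under the lowest Ctrl library. Its log2 fold change was -0.48 ± 0.09 with an FDR of 0.00846, close to the threshold. Leaving out Ctrl replicate 1, 2 or 3 or MIR21-KO replicate 2 ended the call (FDR 0.0300 to 0.0400), as did testing without the low-value filter (FDR 0.0178) or without trend and robust fitting (FDR 0.0207).

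PHGDH, the first enzyme of serine synthesis, was not called. Its values were 7.95, 8.34 and 7.78 FPKM in Ctrl and 11.7, 9.85 and 8.27 FPKM in MIR21-KO. MIR21-KO replicate 3 lay within the Ctrl range and replicates 1 and 2 above it, and the fold change was 0.29 (95% interval -0.02 to 0.61, FDR 0.137). SHMT2, the mitochondrial serine hydroxymethyltransferase, was at 34.8, 32.8 and 32.6 FPKM in Ctrl and at 31.4, 28.1 and 23.9 FPKM in MIR21-KO. The groups did not overlap, but MIR21-KO replicate 1 lay close to Ctrl, and the fold change of -0.27 (95% interval -0.53 to -0.01) had an FDR of 0.103.

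Amino acid transporters gave no call among 4 members with limma, whereas 2 had an unadjusted p under 0.05 (43.2% of all tested genes did). Voom on recovered reads called the same 2, SLC7A1 and SLC1A5, lower. SLC7A1, a cationic amino acid transporter, was at 13.7, 12.5 and 12.5 FPKM in Ctrl and 6.47, 8.54 and 9.85 FPKM in MIR21-KO. The groups did not overlap, yet the MIR21-KO libraries were spread widely (log2 fold change -0.66 ± 0.15, 95% interval -1.02 to -0.29, FDR 0.0191). It was called lower in 5 of 19 alternatives, among them the fit without MIR21-KO replicate 3 (FDR 0.00565). SLC1A5, a glutamine transporter, was at 77.8, 84.6 and 81.2 FPKM in Ctrl and 64.9, 60.2 and 51.2 FPKM in MIR21-KO. Again all MIR21-KO libraries were lower (log2 fold change -0.47 ± 0.10, 95% interval -0.72 to -0.22, FDR 0.0149), and it was called lower in 7 of 19 alternatives, among them the fits without MIR21-KO replicate 1 (FDR 0.00840) or replicate 3 (FDR 0.00784).

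The subunits of the leucine transporter CD98 were the most abundant of this arm. SLC7A5, its catalytic chain, was at 317, 307 and 313 FPKM in Ctrl and 291, 309 and 299 FPKM in MIR21-KO. SLC3A2, its heavy chain, was at 117, 121 and 121 FPKM in Ctrl and 134, 122 and 111 FPKM in MIR21-KO. Both genes overlapped between groups, with fold changes of -0.06 (95% interval -0.25 to 0.13) and 0.03 (95% interval -0.20 to 0.25). The sign of SLC3A2 was negative with scaling by total reads and with voom (both -0.01). Over the 10 genes of synthesis and transport, 4 were called lower and none higher (8.38% and 7.66% of all tested genes), 8 fold changes were negative and the median was -0.47.

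RefSeq promoter windows were held for 37 members (all but PSPH, SHMT2 and PDIA3), and 7 of these hold the C/EBP-ATF response element, searched as TGATGNAA on both strands of 300 bases around each annotated start. CEBPG, CHAC1, ASNS, SLC3A2, SLC7A1, SLC1A5 and HERPUD1 hold it, beside 3.62% of all 35116 windows; a gene can have several windows. The stretches of the 5 amino acid and CEBPG genes with a match are shown because 3 of the 4 transporters and 2 of the called members are among them (RefSeq, GRCh38.p14, gene strand, element or its reverse complement in capitals). A match is a description of the letters and not of binding.
CEBPG (chr19:33374035-33374114, plus strand): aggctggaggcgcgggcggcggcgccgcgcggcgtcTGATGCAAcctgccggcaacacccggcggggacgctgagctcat
ASNS (chr7:97872433-97872512, minus strand): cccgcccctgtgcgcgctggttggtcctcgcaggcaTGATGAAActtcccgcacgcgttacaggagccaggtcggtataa
SLC3A2 (chr11:62881669-62881748, plus strand): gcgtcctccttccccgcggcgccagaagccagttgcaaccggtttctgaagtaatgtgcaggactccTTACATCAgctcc
SLC7A1 (chr13:29595639-29595718, minus strand): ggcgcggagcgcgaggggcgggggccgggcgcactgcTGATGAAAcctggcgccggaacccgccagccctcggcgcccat
SLC1A5 (chr19:46784868-46784947, minus strand): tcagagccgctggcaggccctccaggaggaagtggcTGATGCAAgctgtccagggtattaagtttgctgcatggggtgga
The element lies on the strand opposite to the gene in SLC3A2, where it reads TTACATCA. SLC3A2 and SLC1A5 have 3 windows each, of which 1 holds the element. For SLC1A5 this is window 3 (chr19:46784765-46785064), which lies inside the gene (chr19:46774883-46788594, minus strand). Among these 5 genes CEBPG and ASNS fell, SLC7A1 and SLC1A5 had the intervals below 0 given above without being called, and SLC3A2 overlapped between groups. HERPUD1 and CHAC1, which also hold the element, differed in direction. HERPUD1 was called higher (log2 fold change 0.51), and CHAC1 was not called (-1.73). PSAT1 and MTHFD2, which had the largest falls of the synthesis arm, have windows without these letters.

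**Figure D2:**
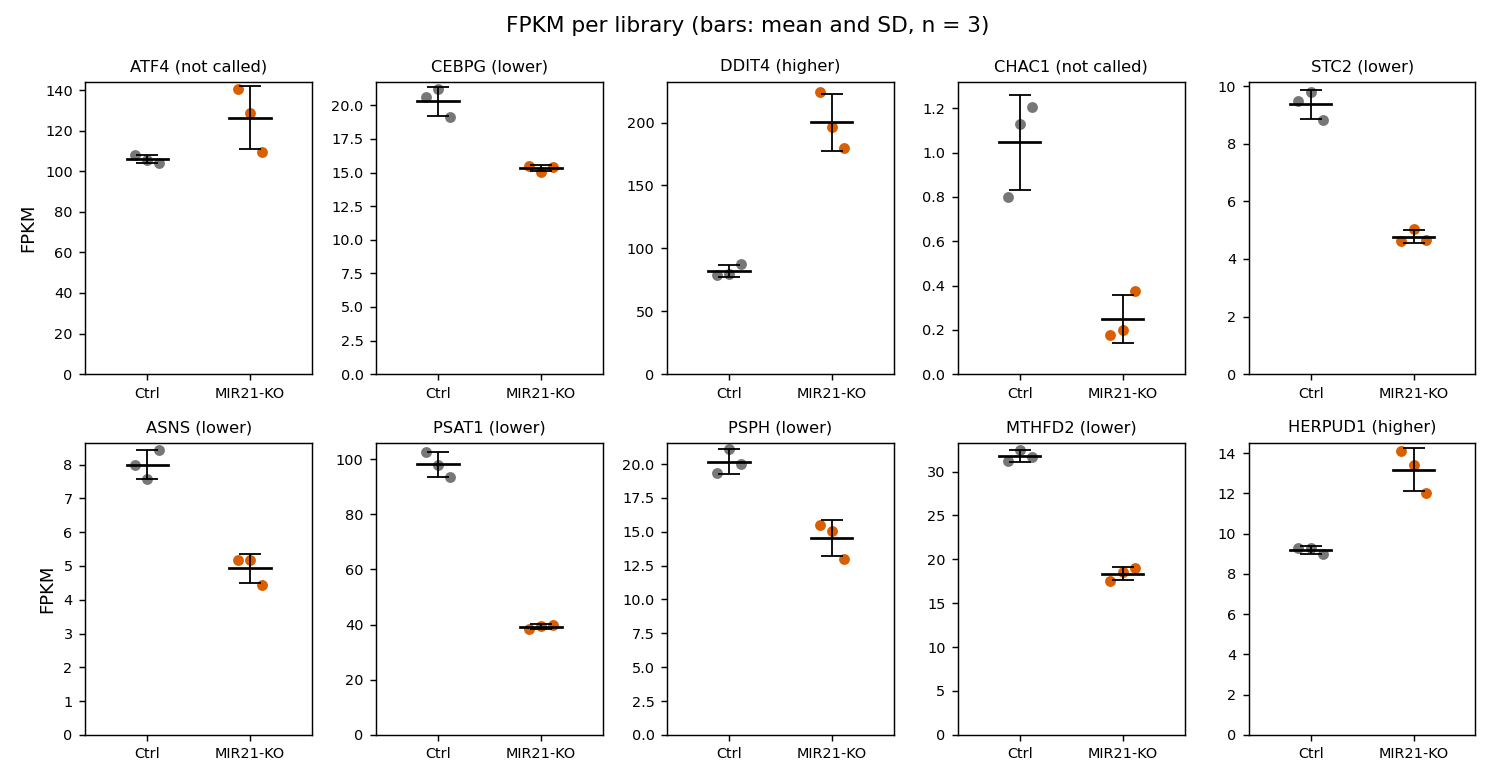
FPKM in each library (points), with the mean and SD of 3 libraries per group, for the 8 called members and for ATF4 and CHAC1, which were not called; every axis starts at 0. All 8 called members, ATF4 and CHAC1 separate without overlap. For ATF4, MIR21-KO replicate 3 (109.7 FPKM) lies just above the highest Ctrl library (108 FPKM).

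Sensors and transcription factors gave 1 call among 9 members, with a median fold change of 0.04. CEBPG (chr19:33373330-33382686, plus strand), which dimerises with ATF4, fell. It was at 20.6, 21.2 and 19.1 FPKM in Ctrl and at 15.5, 15.1 and 15.4 FPKM in MIR21-KO. The MIR21-KO libraries were nearly identical and all under Ctrl, with a log2 fold change of -0.40 ± 0.07 and an FDR of 0.00628. Leaving out any one library except MIR21-KO replicate 3 ended the call (FDR 0.0110 to 0.0373). So did testing without the low-value filter (FDR 0.0130 for CEBPG) or without trend and robust fitting (FDR 0.0176).

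ATF4 (ENSG00000128272, chr22:39519695-39522685, plus strand) was at 108, 106 and 104 FPKM in Ctrl replicates 1 to 3 and at 141, 129 and 109.7 FPKM in MIR21-KO replicates 1 to 3. Replicate 1 of MIR21-KO was highest and replicate 3 barely above Ctrl. The mean was 106 ± 2.04 FPKM in Ctrl and 126 ± 15.6 FPKM in MIR21-KO (SD, n = 3), and the fold change of 0.25 ± 0.11 (95% interval -0.0031 to 0.50) was not called (FDR 0.119). Without MIR21-KO replicate 3 the fold change was 0.35 and passed the threshold (FDR 0.00869). Transcript levels do not report the translation by which ATF4 is mainly controlled.

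CEBPB, a C/EBP family factor that partners with ATF4, was at 64.5, 72.6 and 72.7 FPKM in Ctrl and 120.0, 108 and 80.3 FPKM in MIR21-KO. The groups did not overlap, and the MIR21-KO libraries differed among each other by more than the Ctrl libraries (log2 fold change 0.54 ± 0.15, 95% interval 0.17 to 0.91, FDR 0.0381). It was called higher without MIR21-KO replicate 3 (FDR 0.00205). ATF5, an ATF4-related factor, was at 22.7, 23.3 and 22.2 FPKM in Ctrl and 22.3, 19.2 and 15.97 FPKM in MIR21-KO. Its groups overlapped through MIR21-KO replicate 1 (log2 fold change -0.26, 95% interval -0.55 to 0.04, FDR 0.158), and NUP62, a gene on the opposite strand that overlaps ATF5, was at 29.3 and 23.6 FPKM.

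Among the kinases, PERK (EIF2AK3) had 3.14, 3.34 and 2.95 FPKM in Ctrl and 3.82, 4.12 and 4.80 FPKM in MIR21-KO. All MIR21-KO libraries were higher, but the fold change of 0.42 (95% interval 0.13 to 0.71) was not called (FDR 0.0381). GCN2 (EIF2AK4) was at 5.11, 4.35 and 4.81 FPKM in Ctrl and 3.84, 4.68 and 5.20 FPKM in MIR21-KO, with groups that overlapped and a fold change of -0.06 (95% interval -0.39 to 0.26). The ER sensor IRE1 (ERN1) was at 2.52, 2.26 and 2.08 FPKM in Ctrl and 1.85, 2.17 and 2.63 FPKM in MIR21-KO. ATF6 was at 5.97, 6.19 and 6.42 FPKM in Ctrl and 5.99, 5.81 and 7.39 FPKM in MIR21-KO. Their intervals of -0.44 to 0.34 and -0.23 to 0.31 both included 0, and the sign of either gene, like that of EIF2AK4, changed when a single MIR21-KO library was left out. XBP1, the factor spliced by IRE1, was at 14.9, 14.7 and 16.5 FPKM in Ctrl and 18.8, 19.6 and 16.6 FPKM in MIR21-KO. The lowest MIR21-KO library lay just above the highest Ctrl library, and the fold change of 0.25 (95% interval 0.03 to 0.47) had an FDR of 0.0810; gene-level values do not tell spliced from unspliced XBP1.

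Stress effectors split in direction. Of 7 members 1 rose, 1 fell and 5 were not called, although all 7 had an unadjusted p under 0.05 (43.2% of all tested genes did), and the median fold change was 0.35.

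DDIT4 (REDD1, chr10:72273920-72276036, plus strand) was the member with the largest positive fold change. Ctrl libraries were at 78.7, 79.5 and 87.8 FPKM and MIR21-KO libraries at 225, 197 and 179.9 FPKM. All MIR21-KO libraries exceeded every Ctrl library by more than the spread within either group. The mean was 82.0 ± 5.06 FPKM in Ctrl and 200.4 ± 22.6 FPKM in MIR21-KO (SD, n = 3), a ratio of 2.44, with a log2 fold change of 1.28 ± 0.11 and an FDR of 0.000399, kept in all 19 alternatives. An antisense gene that overlaps DDIT4, RP11.442H21.2, was listed at a mean of 25.1 FPKM in Ctrl and 51.9 FPKM in MIR21-KO. The strand setting of the counting is not stated, and without strand the reads of such a pair cannot be told apart.

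STC2 (chr5:173314713-173329503, minus strand), stanniocalcin 2, moved the other way. It was at 9.49, 9.80 and 8.83 FPKM in Ctrl and at 4.62, 5.03 and 4.65 FPKM in MIR21-KO. The groups did not overlap, with a log2 fold change of -0.96 ± 0.09 and an FDR of 0.000503, kept in all 19 alternatives.

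CHAC1 (chr15:40952962-40956519, plus strand), which degrades glutathione and is a late ATF4 and CHOP target, had the most negative fold change of all members at a low level. It was at 0.802, 1.13 and 1.21 FPKM in Ctrl and 0.178, 0.198 and 0.375 FPKM in MIR21-KO, which corresponds to 5 to 34 reads per library. The groups did not overlap, and the log2 fold change of -1.73 ± 0.36 (95% interval -2.59 to -0.88) missed the threshold with an FDR of 0.0120. Voom on recovered reads called it lower (FDR 0.00437), as did the fit without MIR21-KO replicate 3 (FDR 0.00729). CHAC1 was called lower in 6 of 18 alternatives, among them the pseudocount of 1, with which the fold change was -0.71.

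CHOP (DDIT3) was at 5.46, 5.80 and 5.95 FPKM in Ctrl and 13.04, 8.58 and 7.06 FPKM in MIR21-KO. Every MIR21-KO library was higher, with replicate 1 far above the others, and the fold change of 0.68 (95% interval 0.17 to 1.19) had an FDR of 0.0501. DDIT3 overlaps the methionyl-tRNA synthetase gene MARS on the opposite strand, which was at 24.6 FPKM in Ctrl and 17.0 FPKM in MIR21-KO. TRIB3, a pseudokinase induced by ATF4 and CHOP, was at 10.5, 12.9 and 11.9 FPKM in Ctrl and 17.2, 15.4 and 12.7 FPKM in MIR21-KO and overlapped between groups through MIR21-KO replicate 3 (log2 fold change 0.35, 95% interval 0.03 to 0.67, FDR 0.0891). PPP1R15A, the phosphatase subunit GADD34 that reverses eIF2alpha phosphorylation, was at 13.7, 14.4 and 13.4 FPKM in Ctrl and 16.5, 15.9 and 15.01 FPKM in MIR21-KO. Its groups did not overlap but were close (log2 fold change 0.19, 95% interval 0.02 to 0.36, FDR 0.0904). VLDLR, a lipoprotein receptor, was at 4.53, 3.73 and 3.56 FPKM in Ctrl and 4.73, 5.15 and 5.50 FPKM in MIR21-KO, where the lowest MIR21-KO library lay just above the highest Ctrl library (log2 fold change 0.38, 95% interval 0.08 to 0.67, FDR 0.0580).

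ER folding genes made up the most abundant arm and gave 0 calls among 10 members with limma, at a median fold change of -0.08. Of the 10, 3 had an unadjusted p under 0.05 (43.2% of all tested genes did) and 4 fold changes were positive. PDIA4 was called lower by voom, with scaling by total reads and with the length trend removed, and PDIA4, CANX and SDF2L1 were called lower with GC and length trends removed. Their summed FPKM was 1319.5 to 1393.7 in Ctrl and 1134 to 1403.8 in MIR21-KO, so that the MIR21-KO libraries enclosed the Ctrl range. Within MIR21-KO, replicate 1 was highest for 8 of the 10 genes and replicate 3 lowest for 9, and within Ctrl replicate 2 was highest for 9.

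The lectin chaperone calreticulin (CALR) was at 450.3, 488 and 474 FPKM in Ctrl and 510.1, 435 and 372 FPKM in MIR21-KO. The MIR21-KO libraries lay on both sides of Ctrl, and the fold change was -0.11 (95% interval -0.42 to 0.20). Its membrane-bound relative calnexin (CANX) was at 190.2, 180.1 and 182 FPKM in Ctrl and 127, 137 and 159 FPKM in MIR21-KO. Here the groups did not overlap and replicate 3 was nearest to Ctrl, with a fold change of -0.39 (95% interval -0.64 to -0.15, FDR 0.0275), and without replicate 3 the FDR was 0.00319. PDIA4, a protein disulfide isomerase, was at 159, 167 and 166 FPKM in Ctrl and 140.3, 131 and 117 FPKM in MIR21-KO, again without overlap (log2 fold change -0.35, 95% interval -0.56 to -0.13, FDR 0.0284).

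The other disulfide isomerases overlapped between groups. PDIA3 was at 109, 112 and 108 FPKM in Ctrl and 133, 119 and 109 FPKM in MIR21-KO (95% interval of the log2 fold change -0.09 to 0.35). PDIA6 was at 121, 129.5 and 123 FPKM in Ctrl and 124, 114 and 102 FPKM in MIR21-KO (95% interval -0.37 to 0.09). P4HB was at 195, 205 and 201 FPKM in Ctrl and 258, 231 and 197 FPKM in MIR21-KO (95% interval -0.09 to 0.45). MIR21-KO replicate 3 was within the Ctrl range for PDIA3 and P4HB and under it for PDIA6. An antisense gene over P4HB was listed at 197 FPKM in Ctrl and 189 FPKM in MIR21-KO, close to the level of P4HB itself, and the pseudogene PDIA3P1, a near copy of PDIA3, had a mean of 14.3 FPKM, so that the split of reads is uncertain for both genes.

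The co-chaperone SDF2L1 was at 35.8, 44.3 and 35.8 FPKM in Ctrl and 36.9, 30.99 and 23.7 FPKM in MIR21-KO (log2 fold change -0.36, 95% interval -0.77 to 0.06). CRELD2 was at 7.47, 9.22 and 8.85 FPKM in Ctrl and 12.5, 11.7 and 9.10 FPKM in MIR21-KO (0.37, 0.03 to 0.71). Both genes overlapped between groups, with fold changes of opposite sign. MANF, a secreted ER stress protein, was at 34.6, 39.2 and 33.9 FPKM in Ctrl and 44.2, 39.97 and 28.7 FPKM in MIR21-KO (0.05, -0.34 to 0.44). HYOU1, the ER chaperone GRP170, was at 17.1, 18.4 and 18.1 FPKM in Ctrl and 17.3, 18.2 and 16.2 FPKM in MIR21-KO (-0.05, -0.23 to 0.13). These 2 genes overlapped as well, and for all 4 MIR21-KO replicate 3 was the lowest MIR21-KO library.

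The 2 ER stress elements bound by ATF6 with NF-Y were searched in the same promoter windows on both strands, ERSE as CCAAT and CCACG 9 bases apart and ERSE-II as ATTGG and CCACG 1 base apart. ERSE was found for 5 of 37 members (XBP1, CALR, CANX, PDIA6 and CRELD2) and in 0.0769% of all windows, and ERSE-II for 3 of 37 (SDF2L1, HYOU1 and HERPUD1) and in 0.0541% of all windows. TGACGTGG, the unfolded protein response element, was found for HYOU1 alone, overlapping an ERSE-II, and in 0.729% of all windows. Stretches are shown because the genes that carry the elements differ in direction (RefSeq, GRCh38.p14, gene strand, elements in capitals). Those of PDIA6 and HYOU1 are left out.
XBP1 (chr22:28800573-28800652, minus strand): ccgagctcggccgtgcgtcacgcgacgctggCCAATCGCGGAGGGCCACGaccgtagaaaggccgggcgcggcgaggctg
CALR (chr19:12938359-12938438, plus strand): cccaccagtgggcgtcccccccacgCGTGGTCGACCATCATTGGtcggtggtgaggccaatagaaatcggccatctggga
CANX (chr5:179698747-179698826, plus strand): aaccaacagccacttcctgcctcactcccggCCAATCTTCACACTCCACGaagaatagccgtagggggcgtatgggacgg
CRELD2 (chr22:49918523-49918602, plus strand): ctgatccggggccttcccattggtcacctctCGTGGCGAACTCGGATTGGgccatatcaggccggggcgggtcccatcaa
SDF2L1 (chr22:21642079-21642158, plus strand): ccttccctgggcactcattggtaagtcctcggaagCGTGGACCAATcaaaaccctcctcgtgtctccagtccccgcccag
HERPUD1 (chr16:56931961-56932040, plus strand): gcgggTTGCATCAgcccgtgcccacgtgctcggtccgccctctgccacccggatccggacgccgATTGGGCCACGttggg
HERPUD1 holds both TTGCATCA, the reverse complement of the C/EBP-ATF element, at position -176 from the annotated start and an ERSE-II at position -117. It is the 1 called member among the 8 with an ERSE or ERSE-II. The other 7 were not called, with fold changes from -0.39 (CANX) to 0.37 (CRELD2).

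ERAD genes had a positive median fold change of 0.29 over 4 members, of which 1 was called. HERPUD1 (chr16:56932048-56944863, plus strand), a membrane protein that organises the ERAD complex, was at 9.30, 9.29 and 8.98 FPKM in Ctrl and at 14.1, 13.4 and 12.01 FPKM in MIR21-KO. All MIR21-KO libraries were above Ctrl, and the gene rose with a log2 fold change of 0.51 ± 0.08 and an FDR of 0.00503. Leaving out any one library except MIR21-KO replicate 3 ended the call (FDR 0.0104 to 0.0311). So did testing without the low-value filter (FDR 0.0108 for HERPUD1) or without trend and robust fitting (FDR 0.0126). The ubiquitin ligase HRD1 (SYVN1) was at 8.02, 6.85 and 8.82 FPKM in Ctrl and 9.12, 10.5 and 9.34 FPKM in MIR21-KO, without overlap and without a call (log2 fold change 0.29, 95% interval 0.02 to 0.57, FDR 0.10). SYVN1 overlaps FAU, a ribosomal protein gene on the same strand with 163 and 194 FPKM. EDEM1, which routes misfolded glycoproteins to ERAD, was at 10.2, 8.93 and 9.59 FPKM in Ctrl and 10.8, 10.95 and 13.7 FPKM in MIR21-KO, also without overlap (log2 fold change 0.29, 95% interval 0.02 to 0.57, FDR 0.10). SEL1L, the adaptor of HRD1, was at 15.2, 13.3 and 13.96 FPKM in Ctrl and 10.6, 13.4 and 17.1 FPKM in MIR21-KO, where MIR21-KO enclosed the Ctrl range (log2 fold change -0.07, 95% interval -0.48 to 0.33).

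**Figure D3:**
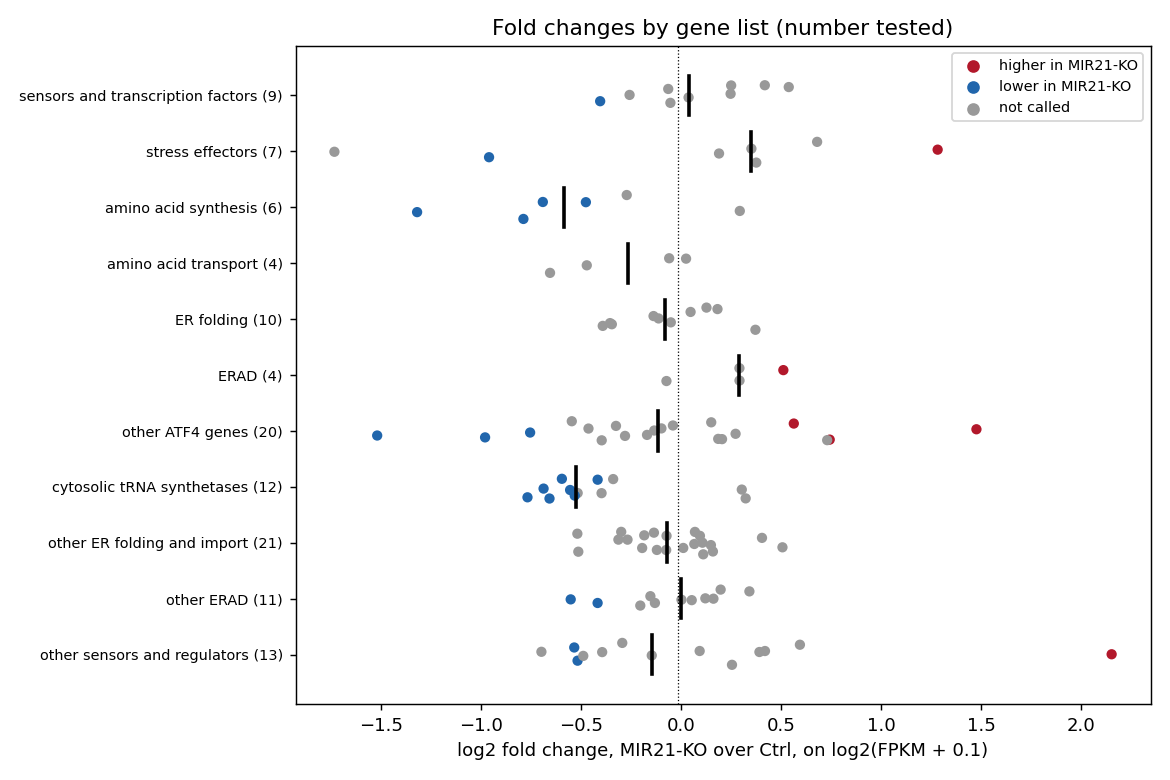
Each point is a tested gene, placed by its log2 fold change (MIR21-KO minus Ctrl) and coloured by its call; black bars are list medians and the dotted line the median of all tested genes. The medians of amino acid synthesis (-0.58) and of the cytosolic tRNA synthetases (-0.52) lie left of the dotted line, those of stress effectors (0.35) and ERAD (0.29) right of it, and those of both ER folding lists close to it.

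A further 81 genes of these pathways were counted by list, and 77 passed the filter on low values. Of these 77 genes, 4 were called higher and 14 lower, against 7.66% and 8.38% of all tested genes. The list of 12 cytosolic tRNA synthetases, many of which ATF4 induces, had the most calls. It does not cover the whole family, and synthetases outside the list were not examined. Of these 12 genes 7 fell (GARS, IARS, LARS, MARS, NARS, TARS and YARS), against 8.38% of all tested genes, and none was called higher. All 12 had an unadjusted p under 0.05 (43.2% of all tested genes did) and the median was -0.52. SARS (0.32) and WARS (0.30) had positive fold changes and were not called. IARS had the most negative fold change of the list. It was at 45.8, 42.3 and 41.04 FPKM in Ctrl and 23.1, 24.3 and 28.5 FPKM in MIR21-KO, without overlap (log2 fold change -0.77 ± 0.10, FDR 0.00209). Of this list 1 gene was called lower without Ctrl replicate 1, 2 or 3 or MIR21-KO replicate 2, and 9 were called lower and 2 higher without MIR21-KO replicate 3. No gene of this list was called in the fit blocked by replicate number. IARS lost its call without Ctrl replicate 1, 2 or 3 or MIR21-KO replicate 2 (FDR 0.0118 to 0.0163). Over the 77 genes, 1 was called lower and 2 higher without each of these 4 libraries in turn, and 22 were called lower without MIR21-KO replicate 3.

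Other genes regulated by ATF4 split, with 3 of 20 tested called higher and 3 lower (7.66% and 8.38% of all tested genes). The angiogenic factor VEGFA was at 3.01, 3.06 and 3.04 FPKM in Ctrl and 7.99, 8.88 and 9.09 FPKM in MIR21-KO, and all MIR21-KO libraries were higher (log2 fold change 1.48 ± 0.09, FDR 0.000138). GADD45A, a growth arrest gene, was at 19.2, 22.4 and 19.2 FPKM in Ctrl and 36.6, 36.2 and 29.4 FPKM in MIR21-KO (0.74 ± 0.11, FDR 0.00399). GDF15, a secreted stress cytokine, went the other way, from 35.8, 40.1 and 38.5 FPKM in Ctrl to 17.7, 13.3 and 9.83 FPKM in MIR21-KO (-1.52 ± 0.20, FDR 0.00227). The adaptor gene GRB10 was at 10.4, 8.81 and 9.48 FPKM in Ctrl and 4.28, 4.49 and 5.71 FPKM in MIR21-KO (-0.98 ± 0.13, FDR 0.00252). None of these 4 genes overlapped between groups, and GADD45A, GDF15 and GRB10 each lost the call without Ctrl replicate 1, 2 or 3 or MIR21-KO replicate 2 (FDR 0.0108 to 0.0245).

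Further ER chaperones and import factors gave 0 calls among 21 with limma and 7 with an unadjusted p under 0.05 (43.2% of all tested genes had such a p). In this list 1 gene was called lower by voom, with scaling by total reads or at a mean of at least 5 FPKM, 1 higher and 1 lower with the length trend removed, 1 higher and 2 lower with GC and length trends removed, and 3 lower without MIR21-KO replicate 3. HSPA5 (BiP), the chaperone that holds the ER sensors inactive, was at 253, 272 and 262 FPKM in Ctrl and 259, 242 and 223 FPKM in MIR21-KO. HSP90B1 (GRP94) was at 227, 238 and 231 FPKM in Ctrl and 231, 222 and 210.1 FPKM in MIR21-KO. Both overlapped between groups, with intervals of the log2 fold change of -0.34 to 0.10 and -0.26 to 0.12. Of 11 other ERAD genes 2 were called lower (DERL1 and EDEM2). Of 13 other sensors and regulators EIF2S1, which encodes eIF2alpha, and the GCN2 activator GCN1 were called lower, and CREB3L1, an ER-bound transcription factor, higher. Over all tested genes 8.38% were called lower and 7.66% higher. CREB3L1 was at 1.15, 1.15 and 0.887 FPKM in Ctrl and 4.67, 5.56 and 4.93 FPKM in MIR21-KO without overlap (2.15 ± 0.15 on the log2 scale, FDR 0.000207). No gene of the last 2 lists was called lower without Ctrl replicate 1, 2 or 3 or MIR21-KO replicate 2.

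The deleted microRNA was compared with the 3' UTRs of the members. The longest 3' UTR was taken over all annotated transcripts of a gene that have a coding sequence (GENCODE 29). It can therefore hold bases that other transcripts translate, which was not tested for any site below, SHMT2 included. The mature miR-21-5p (RefSeq, GRCh38.p14, chr17:59841273-59841294, plus strand) is shown with its seed, bases 2 to 8, in capitals. It is followed by the 5 members whose longest annotated 3' UTR holds a seed match, written as DNA with the match in capitals.
miR-21-5p: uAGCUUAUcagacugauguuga
VLDLR site: atccatagataaATAAGCTActaacaaa
SHMT2 site: agtctatgccctATAAGCTcaacggct
SLC7A1 site: tctggccctgacATAAGCTgtctggcc
HYOU1 site: acttgccagaggATAAGCTggctcagt
ERN1 site: tgtcagcataagTAAGCTAaacttgaa
VLDLR holds an 8mer (2.98% of 11659 tested genes with a 3' UTR), SHMT2, SLC7A1 and HYOU1 a 7mer-m8 (7.58%) and ERN1 a 7mer-A1 (4.59%). The other 35 members hold none, like 84.9% of the tested genes, and the 8 called members are among these 35. The fold changes of the 5 genes with a match were 0.38 for VLDLR, -0.27 for SHMT2, -0.66 for SLC7A1, -0.05 for HYOU1 and -0.05 for ERN1, and thus 1 was positive and 4 were negative.

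**Figure D4:**
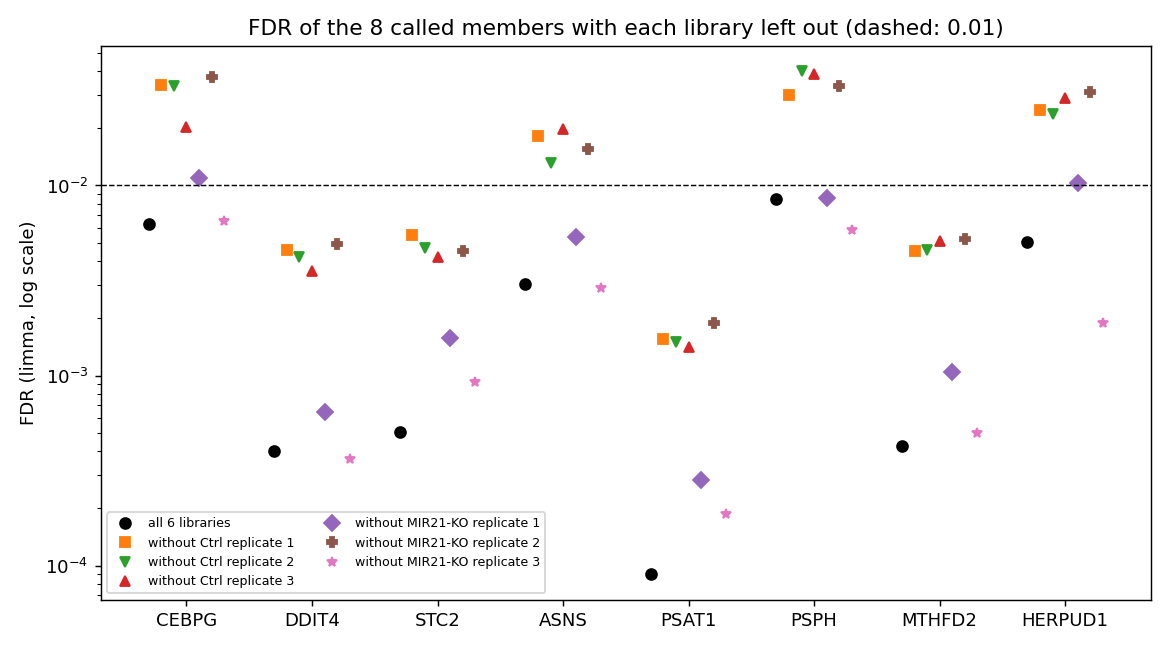
Limma FDR (log axis) of the 8 called members with all 6 libraries (black) and with each library left out in turn (coloured); the dashed line marks 0.01. DDIT4, STC2, PSAT1 and MTHFD2 stay under the line throughout, whereas CEBPG, ASNS, PSPH and HERPUD1 rise above it for 4 or 5 of the 6 libraries.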

How the data were processed

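Groups and replicate numbers of the 6 A549 libraries were taken from the sample titles. The authors deposited 1 table of 58174 genes with gene length, FPKM per library and the results of their own comparison (log2 fold change, p-value and FDR), which were not used. Per the labels, libraries were strand-specific, and the submitters' processing notes name cutadapt 1.14, HISAT2 2.1.0, SAMtools 1.5, featureCounts 1.5.3, edgeR 3.18.1 and the build hg38. The annotation release and the counting options are not given in the sources used here. FPKM times gene length gave whole reads for 100% of values (tolerance 0.001). The library sizes implied by the FPKM were 0.950 to 1.03 times the recovered totals. No 2 libraries agreed within sampling noise (chi-square per degree of freedom at least 2.58). Pairs of Ctrl libraries reached at most 4.915. Pairs of MIR21-KO libraries were at 7.05 to 29.6, the highest between replicates 1 and 3, and pairs across groups at 45.1 to 69.3.

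Limma 3.58.1 in R 4.3.3 was applied to log2(FPKM + 0.1) of genes whose mean reached 0.5 FPKM (eBayes with trend and robust fitting, two-sided, Benjamini-Hochberg adjustment over all tested genes, calls at an FDR under 0.01), after a check on simulated data. Limma on the deposited FPKM was chosen as the main test, although whole reads could be recovered and were fitted with voom as an alternative. Fold changes of log2(FPKM + 0.1) understate those of low genes. Members and lists were chosen with earlier results of these data known. By rule, values are given for all 40 members and, of 81 other pathway genes, for those with the 3 largest changes called in each direction, HSPA5 and HSP90B1. Further genes of those lists (tRNA synthetases other than IARS, DERL1, EDEM2, EIF2S1 and GCN1) were named after their values were seen. The groups shared replicate numbers, which did not pair the libraries. Coordinates and 3' UTRs come from GENCODE 29, promoter windows and miR-21-5p from RefSeq. Of the members, 18 are overlapped by another gene listed at 0.5 FPKM or more and 8 have annotated pseudogene copies, so that the split of their reads depends on the counting. Alternatives were other scalings, filters, pseudocounts, error models and thresholds, voom on recovered reads, a replicate block, removal of the trend on gene length and leaving out each library. Removal of trends on GC content and length (lowess, span 0.3) was added after seeing the data. Figures were drawn with matplotlib 3.10.9.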

Additional observations from a re-analysis of the deposited data

How the results depend on the processing

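With 3 libraries per group, and clones that cannot be told apart from the deletion, calls near the threshold depend on the error model. DDIT4, STC2, PSAT1 and MTHFD2 were called in all 19 alternatives, CEBPG, ASNS, PSPH and HERPUD1 lost the call in 8, 5, 7 and 8. No scaling moved the median of all genes by more than 0.037 on the log2 scale. The causes of the shifts below were not tested, except that a looser threshold calls more genes and fewer libraries give fewer degrees of freedom.

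Members called higher (2 in the main analysis) were 1 with no filter, 1 without trend and robust fitting, 4 at an FDR under 0.05, 5 with GC and length trends removed, and 1 to 4 with a library left out. Members called lower (6) were 10 with voom, 11 at an FDR under 0.05, 13 with GC and length trends removed, and 3 to 10 with a library left out. Other pathway genes called higher (4) were 2 at a mean of at least 5 FPKM, 8 at an FDR under 0.05, 7 with the length trend removed, and 2 to 6 with a library left out. Those called lower (14) were 9 without trend and robust fitting, 25 at an FDR under 0.05, 22 with GC and length trends removed, and 1 to 22 with a library left out. All genes called higher (1226) were 765 at a mean of at least 5 FPKM, 2428 at an FDR under 0.05, and 388 to 1599 with a library left out. All genes called lower (1342) were 2686 at an FDR under 0.05, 2172 with GC and length trends removed, and 368 to 1801 with a library left out.

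The replicate numbers did not pair the libraries: deviations of same-numbered libraries correlated at -0.171, -0.0177 and -0.0174. In a fit blocked by replicate number, 1 member was called higher and 3 lower, 2 other pathway genes higher and 1 lower, and 379 of all genes higher and 272 lower.

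Signs changed for 8 genes that were not called. With 1 library left out, fold changes ran from -0.16 to 0.054 for EIF2AK4, from -0.18 to 0.063 for ERN1, from -0.069 to 0.10 for ATF6, from -0.046 to 0.095 for SLC3A2, from -0.23 to 0.0013 for CALR, from -0.080 to 0.23 for MANF and from -0.24 to 0.10 for SEL1L. With the length trend removed, ERN1 was at 0.0067 and MANF at -0.013. With GC and length trends removed, SLC3A2 was at -0.062, MANF at -0.025, SEL1L at 0.081 and HSP90B1 at 0.043. With voom ATF6 was at -0.0011 and SLC3A2 at -0.011, and with scaling by total reads SLC3A2 was at -0.011.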
